A study of Mus musculus with 6 samples.

Results

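The genes for 5 ion channels that open in response to mechanical or osmotic load in cartilage were followed in mouse intervertebral discs (IVDs): Piezo1, Piezo2, Trpv4, Trpm7 and Trpc1. They were chosen by symbol, and all 5 were found among the 43472 gene symbols of the count files. RNA sequencing was done on 6 libraries of whole IVDs from spinal levels T8 to L5 of C57B6/J mice at postnatal day 20. Of these, 3 libraries came from Col2Cre; Adgrg6f/f mutant mice, in which a Cre transgene driven by the type II collagen promoter recombines a floxed Adgrg6 allele, and 3 from Cre (-) littermates, which the genotype label calls wild type and the title a Col2Cre control. Each library was a pool of 2 to 3 mice, and Adgrg6 (Gpr126 in the files) encodes an adhesion G protein-coupled receptor. As a model, Col2Cre is active throughout the IVD from embryonic stages and also in the periosteum and trabecular bone, so loss is not limited to cartilage. The comparison asks whether the genes for these channels differ in transcript level between mutant and control IVDs before histological changes are seen.

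Chondrocytes and disc cells live in a matrix that is compressed and that swells as water moves in and out, and they sense both through channels that let calcium and other cations into the cell. PIEZO1 and PIEZO2 are large channels opened by tension in the membrane, PIEZO2 being best known from touch and proprioceptive neurons. TRPV4 responds to cell swelling and moderate load and is the best studied of these channels in chondrocytes, where inherited changes of the human gene cause skeletal dysplasias. TRPM7 is a cation channel fused to a protein kinase and is also a route for magnesium. TRPC1 is a cation channel subunit that works with other TRPC proteins and has been linked to stretch and to calcium entry after store release.

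To show where transcription of the genes starts, the 300 bases around the annotated start (250 before it and 50 after) are given from RefSeq for GRCm38.p6. The table held 4 of the 5 members, whose levels differ widely. Each is written 5′ to 3′ on the gene's own strand, which is the minus strand for all 4. Capitals mark matches to any of 5 motifs, which were searched on both strands and chosen after the promoter sequences had been seen. They were TATAAA, which positions the start of transcription, the E-box CACGTG, bound by basic helix-loop-helix factors, the GC box motif GGGCGG, bound by Sp factors, the motif CCAAT, bound by NF-Y, and the motif ACAAAG, bound by SOX factors. No match overlapped another. The intervals are chr8:122551280-122551579 for Piezo1, chr5:114658372-114658671 for Trpv4, chr2:126876212-126876511 for Trpm7 and chr9:95750299-95750598 for Trpc1.
Piezo1: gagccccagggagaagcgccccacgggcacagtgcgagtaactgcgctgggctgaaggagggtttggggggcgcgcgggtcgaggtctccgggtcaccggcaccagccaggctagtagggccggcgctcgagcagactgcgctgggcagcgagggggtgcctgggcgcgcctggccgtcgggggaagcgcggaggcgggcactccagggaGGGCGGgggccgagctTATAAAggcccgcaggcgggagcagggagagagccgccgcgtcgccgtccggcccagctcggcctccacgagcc
Trpv4: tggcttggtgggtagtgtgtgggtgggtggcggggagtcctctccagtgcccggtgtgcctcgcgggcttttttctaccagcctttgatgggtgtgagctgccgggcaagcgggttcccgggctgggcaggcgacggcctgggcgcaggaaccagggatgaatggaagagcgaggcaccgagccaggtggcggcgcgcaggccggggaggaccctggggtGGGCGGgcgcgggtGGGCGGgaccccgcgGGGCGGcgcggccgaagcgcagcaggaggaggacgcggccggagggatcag
Trpm7: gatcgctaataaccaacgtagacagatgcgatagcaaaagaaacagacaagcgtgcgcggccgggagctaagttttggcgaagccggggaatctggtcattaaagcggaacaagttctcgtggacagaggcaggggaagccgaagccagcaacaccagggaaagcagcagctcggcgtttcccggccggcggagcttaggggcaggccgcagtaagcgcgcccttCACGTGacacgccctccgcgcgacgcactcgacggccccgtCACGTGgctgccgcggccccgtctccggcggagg
Trpc1: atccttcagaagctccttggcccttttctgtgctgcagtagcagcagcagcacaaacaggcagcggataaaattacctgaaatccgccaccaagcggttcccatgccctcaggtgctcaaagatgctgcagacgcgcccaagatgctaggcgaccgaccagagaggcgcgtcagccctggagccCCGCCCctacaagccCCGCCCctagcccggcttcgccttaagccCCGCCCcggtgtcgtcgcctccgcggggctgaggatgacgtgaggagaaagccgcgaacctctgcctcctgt

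The Piezo1 promoter held a TATAAA that began 24 bases before the start, a motif present in 13.6% of the 32851 promoters of the table. It also held 1 GC box. The Trpv4 promoter held 3 GC boxes that began within the last 30 bases before the start. The Trpc1 promoter held 3 on its other strand, which read CCGCCC on the strand printed above. A GC box was present in 35.7% of all promoters. The Trpm7 promoter had no GC box and instead held 2 E-boxes, at 25 bases before and 16 bases after the start, a motif found in 7.15% of promoters. None of the 4 held CCAAT or ACAAAG, present in 37.4% and 18.7% of promoters. All 4 were richer in G and C than the median promoter. The G and C content was 75% for Piezo1, 73% for Trpv4, 63.7% for Trpm7 and 63% for Trpc1, against a median of 52.7% (quartiles 45.7% and 61.7%). They held 34, 30, 35 and 22 CG pairs, in the same order, where the median promoter held 7.

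All 5 genes lie on the minus strand in GENCODE M21 on GRCm38. Piezo1 spans chr8:122481698-122551329, Piezo2 chr18:63010213-63387183, Trpv4 chr5:114622152-114658421, Trpm7 chr2:126791565-126876230 and Trpc1 chr9:95705082-95750375. Their spans run from 36.3 kb for Trpv4 to 377 kb for Piezo2.

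Between 9061491 and 12017008 reads were counted on genes per library. Levels are given as CPM, which is a gene's counts scaled to its library's total times a normalization factor (TMM). That factor ran from 0.892 in mutant replicate 1 to 1.15 in control replicate 3. The log2 CPM of any pair of libraries correlated at 0.899 to 0.956 across genes. Cartilage markers were present at very different levels, from Matn1 at a mean of 27.5 CPM to Col2a1 at 104306 CPM. Nucleus pulposus markers were also present, led by Krt19 at a mean of 520 CPM, apart from Noto, which did not exceed 0.082 CPM in any library. Gpr126, the targeted gene, was at 94.3 to 124 CPM in control and 106 to 138 CPM in mutant libraries. The files count reads over the whole gene and the deleted exons are not given in the sources used here, so these values do not check the deletion. Control replicate 1 stood apart, with skeletal muscle markers summing to 3609 CPM against 65.0 to 148 CPM in the other 5 libraries.

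Trpv4 was by far the most abundant of the channels in IVDs and Trpc1 the least. Per kilobase of annotated exon, Trpv4 stood at 144 ± 29.0 CPM per kb (SD, n = 6 libraries), Piezo1 at 23.9 ± 4.83, Trpm7 at 4.16 ± 0.733, Piezo2 at 3.30 ± 0.582 and Trpc1 at 0.683 ± 0.198. Trpv4 was therefore 4.59-fold to 7.83-fold above Piezo1 within single libraries. By the means, Piezo1 was 5.76-fold above Trpm7, the next in order, and Piezo2 4.82-fold above Trpc1. Within each of these 3 neighbouring pairs the ranges over the 6 libraries did not overlap. Trpm7 and Piezo2 were neighbours that did overlap, at 3.14 to 4.98 and 2.36 to 3.84 CPM per kb. Trpm7 was the higher of that pair in 6 of 6 libraries, by 1.01-fold to 1.45-fold. The order of the 5 genes was the same with the longest transcript or the gene span as length, but the gaps by gene span were not. By span, Piezo2 and Trpc1 overlapped, at 0.107 to 0.175 and 0.0686 to 0.157 CPM per kb. Trpm7, at 0.420 to 0.666 CPM per kb of span, did not overlap Piezo2.

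Set against all 16152 genes tested, by mean CPM and not per length, Trpv4 ranked 137 and Piezo1 426. Piezo2 ranked 2774, Trpm7 3450 and Trpc1 11951, the last at the 26.0th percentile. Of the counts that fell on the 5 channel genes, Trpv4 took 54.4% to 70.2% in a library and Piezo1 21.8% to 30.5%. Piezo2 took 4.05% to 8.53%, Trpm7 3.55% to 7.30% and Trpc1 0.311% to 0.920%. Trpv4 and Piezo1 thus carried most of the channel transcripts counted, in mutant and control IVDs alike.

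**Figure D1:**
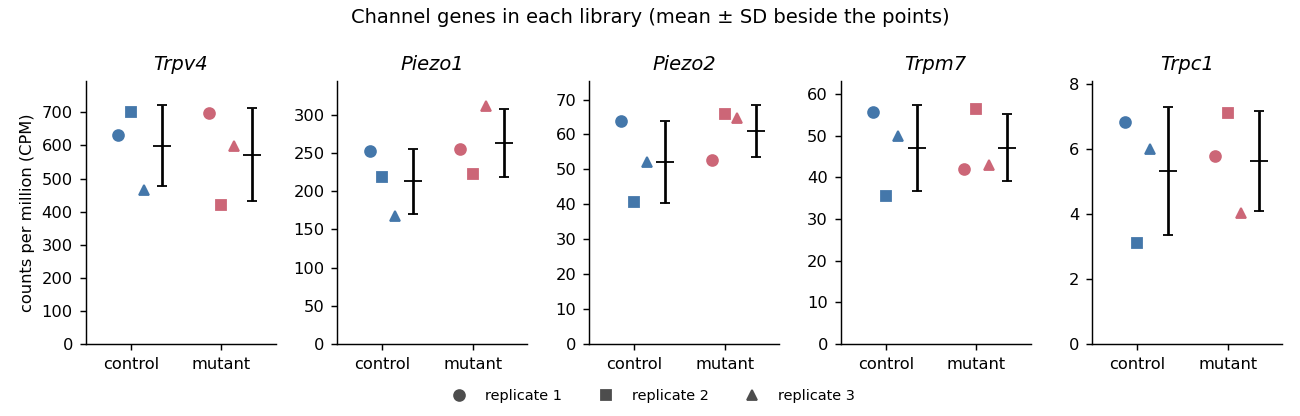
CPM of the 5 channel genes in each of the 6 libraries, with controls in blue, mutants in red, replicates by symbol and the mean ± SD of 3 libraries beside the points; each panel has its own axis from 0. Control and mutant points overlap in all 5 panels, with Trpv4 between 420 and 702 CPM and Trpc1 between 3.11 and 7.10 CPM.

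None of the 5 channel genes differed between mutant and control IVDs beyond the spread between libraries. In edgeR's quasi-likelihood test, 0 of 5 passed an unadjusted p of 0.05, against 7.21% of all genes tested, and 0 of 5 passed after Benjamini-Hochberg adjustment, against 0.00619%. Those percentages are 1164 genes and 1 gene (Prss50, named after its value was seen). The count of members was also 0 of 5 with DESeq2 and with limma-voom, unadjusted and adjusted. Mutant and control libraries overlapped for all 5, whereas 5.45% of genes had every mutant library above every control and 5.96% every mutant library below. The median log2 fold change of mutant over control was 0.085 over the 5 genes and -0.013 over all genes tested. In bulk tissue, fewer cells of a type and less RNA per cell cannot be told apart, which applies to every level given here.

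Piezo1, the channel with the largest estimate, was counted 2362, 1968 and 2140 times in control replicates 1 to 3 and 2238, 2731 and 2932 times in mutant replicates 1 to 3. These counts correspond to 253, 218 and 167 CPM in controls and 255, 223 and 312 CPM in mutants. Mutant replicate 3 was the highest library and control replicate 3 the lowest, and the remaining 4 libraries lay within 218 to 255 CPM. The means were 213 ± 43.0 CPM in controls and 263 ± 44.9 CPM in mutants (SD, n = 3 each). The log2 fold change was 0.31 ± 0.22 (SE), with a 95% interval of -0.17 to 0.79 and an adjusted p of 0.787 in edgeR. In linear terms the interval ran from 0.886-fold to 1.72-fold, so a larger rise or a larger fall lay outside it. Leaving out control replicate 1 gave 0.47 with an unadjusted p of 0.0664 in edgeR. Endothelial markers, which mark a cell type known to express PIEZO1, summed to 271, 144 and 156 CPM in controls and 217, 244 and 250 CPM in mutants. Without control replicate 1 those sums were lower in both controls than in any mutant, and their part in the Piezo1 values was not tested.

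Piezo2, the sensory member of the family, was counted 597, 365 and 665 times in controls and 462, 807 and 608 times in mutants. In CPM, controls stood at 63.9, 40.5 and 52.0 and mutants at 52.6, 65.9 and 64.6. Control replicate 2 was the lowest library, and control replicate 1 lay with the higher mutant libraries. The log2 fold change was 0.23 ± 0.20 (SE), with a 95% interval of -0.21 to 0.67 and an adjusted p of 0.817 in edgeR. Without control replicate 1 it was 0.42 with an unadjusted p of 0.0645, and without control replicate 2 it was 0.072. Nerve and glia markers were low throughout, summing to 51.1 to 152 CPM in controls and 144 to 182 CPM in mutants.

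The ratio of Piezo1 to Piezo2 within a library needs no scaling between libraries. Raw Piezo1 counts exceeded Piezo2 counts 3.22-fold to 5.39-fold. On the log2 scale the ratio was 1.98, 2.43 and 1.69 in controls and 2.28, 1.76 and 2.27 in mutants. The mutant mean exceeded the control mean by 0.068, and a two-sided exact permutation test gave p = 0.9, where 3 libraries against 3 cannot go below 0.1.

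Trpv4 was counted 5891, 6326 and 5965 times in controls and 6122, 5145 and 5642 times in mutants. In CPM, controls stood at 630, 702 and 466 and mutants at 697, 420 and 599. Each group held 1 library well below the rest, control replicate 3 and mutant replicate 2, and the highest values of the groups were nearly equal. Its means were 600 ± 121 CPM in controls and 572 ± 140 CPM in mutants (SD, n = 3 each). The log2 fold change was -0.068 ± 0.25 (SE), with a 95% interval of -0.63 to 0.49 and an adjusted p of 0.965 in edgeR. Counting error was 1.39% of the value in the library with the fewest Trpv4 counts, whereas the coefficient of variation between libraries was 20.2% in controls and 24.6% in mutants. Summed cartilage markers were 119751, 121597 and 70679 CPM in controls and 133040, 105525 and 126014 CPM in mutants. That sum is mostly Col2a1, which alone was at 109121, 112181 and 62708 CPM in controls and 124063, 98509 and 119256 CPM in mutants and was lowest in the same libraries as Trpv4, control replicate 3 and mutant replicate 2. Sox9, Acan and Matn1 were likewise lowest within their groups in those libraries, while among mutants Col9a1, Hapln1 and Matn3 were lowest in mutant replicate 3. Of the 7 markers, 5 had estimates below 0 (median -0.29). At an unadjusted p, 1 of 7 was lower (Matn3, -0.78), against 4.32% of all genes, and 0 were higher, against 2.89%. Without control replicate 1 the median was -0.079 and Matn3 was at -0.52. None of the 7 was called in that fit, against 5.25% of all genes higher and 8.89% lower. Matn3 also lost the call without mutant replicate 2 or 3. The part of cartilage content in the Trpv4 values was not tested.

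Trpm7, the channel-kinase, had the estimate nearest to 0. Its counts were 520, 320 and 637 in controls and 369, 691 and 404 in mutants. Controls stood at 55.7, 35.5 and 49.8 CPM and mutants at 42.0, 56.4 and 42.9 CPM, so that each group covered nearly the same range. The log2 fold change was 0.0041 ± 0.21 (SE), with a 95% interval of -0.45 to 0.46 and an adjusted p of 0.997 in edgeR. Its sign turned when control replicate 2 or mutant replicate 2 was left out, with values of -0.16 and -0.13.

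Trpc1 was the least well measured, with 64, 28 and 77 counts in controls and 51, 87 and 38 counts in mutants. Controls stood at 6.85, 3.11 and 6.02 CPM and mutants at 5.80, 7.10 and 4.04 CPM. Control replicate 2 and mutant replicate 3 were low and the other 4 libraries close together. Counting error alone was 18.9% of the value at the lowest count, beside coefficients of variation of 36.9% in controls and 27.2% in mutants. The log2 fold change was 0.085 ± 0.40 (SE), with a 95% interval of -0.81 to 0.98 and an adjusted p of 0.973 in edgeR.

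**Figure D2:**
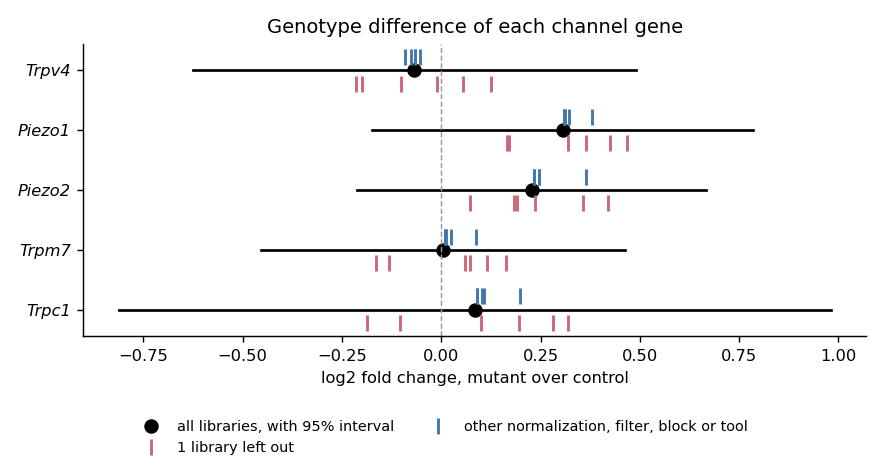
Log2 fold change of mutant over control for each channel gene, as the estimate from all 6 libraries with its 95% interval in black, the 6 estimates with 1 library left out as red ticks, and those from other normalization, filter, block or tool as blue ticks. Every interval crosses 0, and the red ticks fall on both sides of 0 for Trpv4, Trpm7 and Trpc1 but only on the positive side for Piezo1 and Piezo2.

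The estimates for Piezo1 and Piezo2 stayed above 0 whichever of the 6 libraries was left out, at 0.17 to 0.47 and 0.072 to 0.42, without passing the unadjusted threshold in any of those fits. Without control replicate 1, the library rich in muscle transcripts, Trpv4 was at -0.011, Trpm7 at 0.16 and Trpc1 at 0.32, and none of the 5 channels passed. Scaling the libraries to the summed cartilage marker counts, which are mostly Col2a1, an alternative chosen after seeing the data, moved the median of all genes to -0.31. Under it Piezo1 was at 0.051 and Piezo2 at -0.064, both above that median, and Trpv4, Trpm7 and Trpc1 were at -0.34, -0.29 and -0.23.

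Piezo1 shares its locus with Gm20388, a gene model on the opposite strand whose span, chr8:119910841-124345722, encloses Piezo1 entirely. Gm20388 has no exon inside Piezo1. It was counted 24947, 11860 and 14769 times in controls and 13944, 15697 and 13045 times in mutants, far more than Piezo1. The counts of genes inside that span depended on their strand. All 70 genes on the strand of Gm20388 had 0 counts in every library, while 47 of 107 genes on the opposite strand, Piezo1 among them, had counts. Summed over the opposite-strand genes, the counts were 24143, 11763 and 14003 in controls and 12475, 15527 and 13857 in mutants, which is close to those of Gm20388 library by library.

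The muscle actin gene Acta1 lies in the same span, and in control replicate 1 its 11769 counts amounted to 47.2% of the Gm20388 count. In the other 5 libraries that share was 0.961% to 4.12%. Piezo1 counts amounted to 9.47% to 22.5% of Gm20388 counts. A further 2 models overlap Piezo1, Ctu2 on the other strand at its end and Gm26497 on its own strand over 0.154% of its span, and both had 0 counts. With the Acta1 count taken off, Gm20388 was at 13178 in control replicate 1 and at 11598 to 15126 in the other 5 libraries. Whether reads of genes on the other strand, Piezo1 among them, were also counted for Gm20388 was not tested. The sum of Piezo1 and Gm20388 counts had a log2 fold change of -0.20, with an unadjusted p of 0.547 in edgeR, but most of that sum is Gm20388, so it is no estimate for Piezo1. Gm20388 itself had a log2 fold change of -0.27 and an unadjusted p of 0.420.

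**Figure D3:**
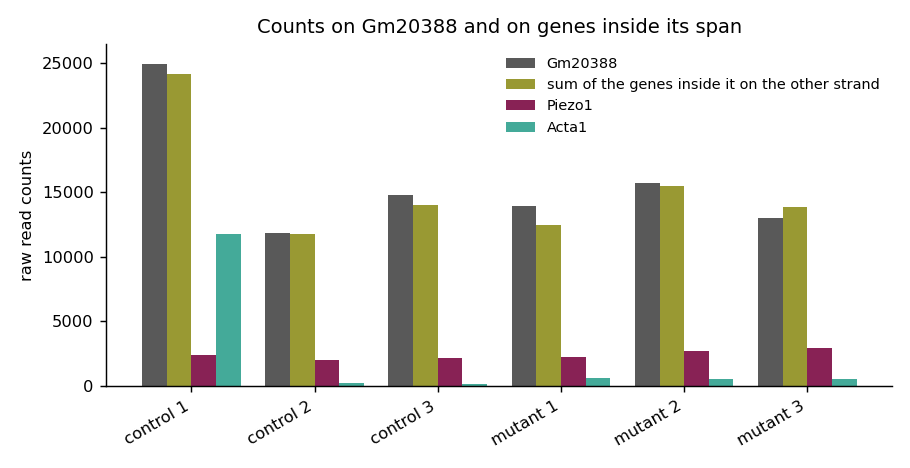
Raw read counts per library on Gm20388, on the genes inside its span on the other strand in sum, on Piezo1 and on Acta1. The Gm20388 bar and the summed bar are of nearly equal height in every library, and control replicate 1 stands out through its 11769 Acta1 counts while its Piezo1 count of 2362 does not.

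Across the libraries, the channels fell into different profiles. Piezo2, Trpm7 and Trpc1 were each lowest in control replicate 2 and highest in mutant replicate 2 among the 6 libraries. Relative to the gene's own mean of log2 CPM, control replicate 2 was at -0.46 for Piezo2, -0.38 for Trpm7 and -0.73 for Trpc1. Mutant replicate 2 was at 0.24, 0.28 and 0.42. Trpv4 ran differently, at 0.29 in control replicate 2 and -0.45 in mutant replicate 2. Piezo1 was lowest in control replicate 3 (-0.48) and highest in mutant replicate 3 (0.41).

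As a measure of likeness, the root mean square difference of centred log2 CPM over the 6 libraries was 0.164 between Piezo2 and Trpm7, the closest pair among the 5. It was 0.223 between Trpm7 and Trpc1 and 0.617 between Trpv4 and Trpc1, the most distant pair. Among the other 16151 genes tested, Trpm7 was still only the 386th most like Piezo2. The closest to Piezo1 was Pex16 (0.053), followed by RP23-243M12.5 and Trim7. The closest to Piezo2 were Elf4 (0.043), Ddx55 and Tsc22d2, and to Trpv4 Ccdc142os (0.042), Ankrd54 and Hoxb2. Kdm4c (0.038), Gm17300 and Chchd3 were closest to Trpm7, and Rbl1 (0.103), L3mbtl3 and Hmmr to Trpc1. With 6 libraries and 16151 genes, close matches of this kind are a description only, and libraries share depth and tissue makeup.

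Genes longer than 100 kb deviated together in some libraries, with a median centred log2 CPM of 0.28 in control replicate 3 and -0.32 in mutant replicate 1 over 2381 such genes. Piezo2, at 377 kb the longest of the members, was at -0.10 and -0.085 in those libraries.

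**Figure D4:**
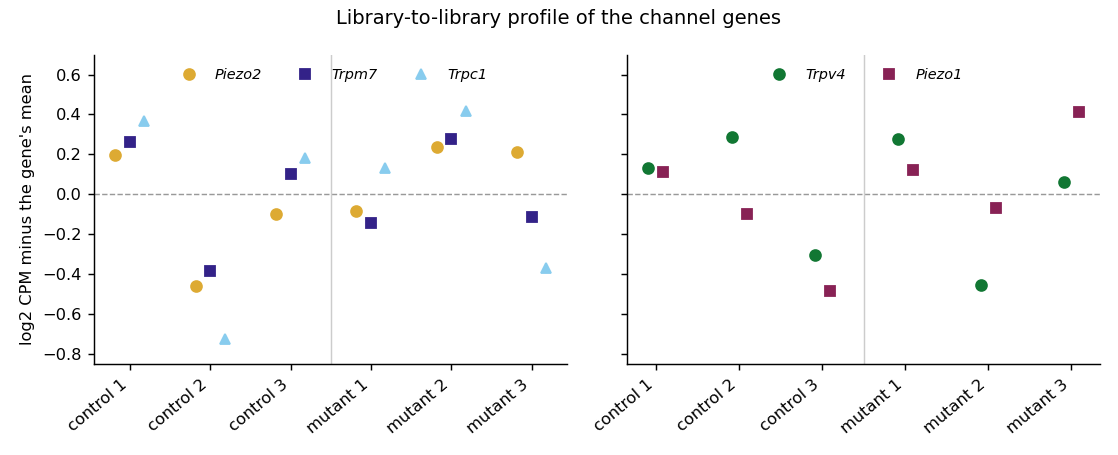
Log2 CPM of each channel gene minus its own mean over the 6 libraries, with Piezo2, Trpm7 and Trpc1 on the left and Trpv4 and Piezo1 on the right, and a grey line between controls and mutants. The 3 genes on the left are lowest in control 2 and highest in mutant 2, where Trpv4 is high and low, respectively.

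Among the other channels of the TRP family, 17 of 25 passed the filter on low counts, and the family ranged from Pkd2 (119 CPM on average) and Trpm4 (58.4 CPM) to Trpa1, at 0 counts in every library. By an unadjusted p in edgeR, 0 of 17 were higher in mutants (background 2.89%) and 4 of 17 lower (background 4.32%), with a list median of -0.19 and none passing adjustment. Trpm3 was at 50.4, 40.6 and 66.6 CPM in controls and 25.2, 39.7 and 27.1 CPM in mutants (log2 fold change -0.78), and it lost the call without control replicate 3 (unadjusted p = 0.0505). The endolysosomal channel gene Mcoln2 (-0.70) and the cold channel gene Trpm8 (-2.03, under 6 CPM everywhere) each lost the call in several of the fits with 1 library left out, and Trpm8 also with limma-voom (-1.88). Without control replicate 1 the count of lower genes was 6 of 18, against 8.89% of all genes in that fit.

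Of 16 other mechanosensitive and volume-regulated channels, 12 were tested, led by the osmosensitive channel genes Tmem63a (147 CPM) and Tmem63b (97.1 CPM), whose estimates were 0.039 and 0.0034. None was higher and 2 were lower at an unadjusted p, namely Asic2 (-1.91) and Tmc1 (-2.05), against 4.32% of all genes. None passed adjustment with all libraries and the filter on low counts. Asic2 passed in edgeR without control replicate 1 (adjusted p = 0.0483) and without the filter (adjusted p = 0.0060). Of all genes, 31 of 17164 passed adjustment in the first of those fits and 245 of 26418 in the second. With limma-voom Asic2 lost even the unadjusted call (-1.73). The acid-sensing channel gene Asic2 was at 2.35, 17.7 and 26.5 CPM in controls and 1.93, 5.06 and 5.31 CPM in mutants, so that control replicate 1 lay with the mutants. The neuronal gene Syt1 was likewise highest in control replicates 2 and 3 and lowest in control replicate 1 and mutant replicate 1, at 0.214, 7.88 and 13.4 CPM in controls and 0.455, 2.86 and 4.25 CPM in mutants. The nerve and glia list summed to 51.1, 124 and 152 CPM in controls and 182, 155 and 144 CPM in mutants. That sum was highest in mutant replicate 1, where Asic2 was lowest. At an unadjusted p, 1 of 7 genes was higher (Nefl, background 2.89%) and 0 lower (background 4.32%), with a list median of -0.057. Without control replicate 1, 1 was higher and 1 lower, against 5.25% and 8.89% of all genes, and the list median was -0.41. Asic2, Tmc1, Trpm3 and Trpm8 are each longer than 100 kb, the class of genes that was high in control replicate 3 and low in mutant replicate 1. Asic2 and Tmc1 each lost the call when either of those libraries was left out, and the part of gene length or of nerve tissue was not tested.

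Genes for proteins that bind or regulate these channels were tested for 11 of 12, with a median of 0.024. The inhibitor of MyoD family gene Mdfi, whose family binds PIEZO channels, was the only one with an unadjusted p under the threshold (background 4.32% lower), and none passed adjustment. It stood at 185, 256 and 165 CPM in controls and 148, 116 and 146 CPM in mutants (log2 fold change -0.56), and lost the call without control replicate 2 or mutant replicate 2. The most abundant, the polycystin gene Pkd1 (454 CPM) and the caveolin gene Cav1 (188 CPM), had estimates of 0.28 and 0.36 and did not pass, although Cav1 did with limma-voom (0.53, unadjusted p = 0.0192) and without control replicate 3 (0.51, unadjusted p = 0.0474). Reads on Pkd1 could not be separated from its neighbour Tsc2 on the other strand if strand was not used.

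Downstream of calcium entry, 17 of 18 genes for calmodulin, calcineurin, CaM kinases and NFAT factors were tested, with a median of 0.20. Unadjusted, 3 were higher in mutants (background 2.89%) and 0 lower (background 4.32%), and none passed adjustment. Nfatc1, a transcription factor activated by calcineurin, was at 71.7, 63.1 and 56.4 CPM in controls and 94.7, 86.2 and 88.9 CPM in mutants, without overlap. Its log2 fold change was 0.50 ± 0.16 (SE), with an adjusted p of 0.676, and it kept the call with any 1 library left out but not with cartilage scaling (0.22, unadjusted p = 0.474). Nfatc2 (0.50) and the kinase gene Camk2b (0.89) lost it without control replicate 2, control replicate 3 or mutant replicate 2. They also lost it with cartilage scaling (0.29 and 0.70), so none of the 3 calls held under that scaling. It moved the median of all genes from -0.013 to -0.31, so a higher call lost under it is not by itself a weak one. Camk2b was highest in mutant replicate 2 (269 CPM) and was at 0.38 without it and at 1.35 without control replicate 1. The calcineurin gene Ppp3ca (280 CPM) and the calmodulin gene Calm3 (261 CPM), the most abundant of the list, were at -0.040 and 0.0034. Some markers of other cell types were also higher at an unadjusted p. Among them were the osteoblast genes Bglap (1.64) and Bglap2 (1.31) and the annulus and tendon genes Thbs4 (1.09), Tnmd (0.96) and Tnc (0.96). In all, 2 of 6 osteoblast markers were higher and 1 lower (Runx2, -0.55), and 3 of 6 annulus and tendon markers were higher and 0 lower. Runx2 lost the call when control replicate 1 or either of mutant replicates 1 and 3 was left out. Without control replicate 1 the osteoblast counts were 3 of 6 higher and 0 lower, against 5.25% and 8.89% of all genes in that fit. Their summed levels were 437 to 702 CPM in controls and 507 to 806 CPM in mutants for osteoblast markers, and 2920 to 4264 and 3877 to 5455 CPM for annulus and tendon markers. Their part in the calcium and load response values was not tested. This direction was not common to all marker lists. Medians were negative for cartilage (-0.29), nerve and glia (-0.057), nucleus pulposus (-0.012) and skeletal muscle markers (-3.11), and positive for the other marker lists. Of the muscle markers, 6 of 6 were lower at an unadjusted p. Without control replicate 1, 3 of 6 were higher and 0 lower.

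Genes that respond to load and to the coactivators YAP and TAZ had a median of 0.39 over 15 of 16 genes tested, the highest of the 5 related lists, while neutrophil precursor (0.99), annulus and tendon (0.71) and red cell precursor markers had higher medians. By an unadjusted p 5 were higher (background 2.89%) and 0 lower (background 4.32%), with none after adjustment. Without the filter on low counts Fos, Egr1 and Klf2 passed adjustment in edgeR (adjusted p = 3.6e-05, 5.2e-05 and 0.0076). In that fit 245 of all 26418 genes passed adjustment, against 1 of 16152 with the filter. With DESeq2 and the filter the adjusted p of the 3 genes was 0.448, 0.485 and 0.659. The immediate early gene Fos was at 48.1, 14.8 and 28.5 CPM in controls and 236, 69.0 and 47.8 CPM in mutants, so that control replicate 1 overlapped the lowest mutant. Its log2 fold change was 1.95, and that of Egr1, another immediate early gene, was 1.94. Mutant replicate 1 was the highest library for both, and without it Fos was at 0.97 (unadjusted p = 0.0379) and Egr1 at 0.92 (unadjusted p = 0.0607), so that Egr1 lost the call. The shear-responsive factor gene Klf2 (1.18) and the TEAD factor gene Tead3 (0.43) lost the call with DESeq2. Both also lost it in several of the fits with 1 library left out. Tead3 lost it too with cartilage scaling (0.11), which moved the median of all genes to -0.31. Tead2 kept it in all 6 fits with 1 library left out but lost it under that scaling (0.56, unadjusted p = 0.214 in edgeR). Tead2 was at 6.42, 6.88 and 5.71 CPM in controls and 12.9, 9.63 and 11.8 CPM in mutants (log2 fold change 0.85, adjusted p = 0.676 in edgeR), and its locus overlaps Cd37 on the other strand. Ctgf (311 CPM) and Cyr61 (259 CPM), the usual readouts of YAP activity, were at 0.51 and 0.67 with unadjusted p of 0.156 and 0.0529 in edgeR. Both passed the unadjusted threshold with limma-voom (0.68 and 0.98), without the filter on low counts (0.52 and 0.68) and without control replicate 1 (1.02 and 1.12, unadjusted p = 0.0019 and 0.00077 in edgeR). Cyr61 also passed with DESeq2 and without mutant replicate 2. It did not pass without control replicate 2, control replicate 3, mutant replicate 1 or mutant replicate 3. Ctgf did not pass with DESeq2 (unadjusted p = 0.0887) or with any library other than control replicate 1 left out. Neither passed with cartilage scaling (0.27 for Ctgf and 0.41 for Cyr61). Without control replicate 1, 6 of 15 were higher, against 5.25% of all genes in that fit. In the same fit 5 of 7 endothelial and 5 of 6 red cell precursor markers were also higher. Endothelial markers summed to 271, 144 and 156 CPM in controls and 217, 244 and 250 CPM in mutants. Neutrophil precursor markers summed to 16.2, 28.5 and 57.1 CPM in controls and 138, 48.0 and 29.2 CPM in mutants. Like Fos and Egr1, they were highest in mutant replicate 1. The part of these cell types in the load response values was not tested.

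**Figure D5:**
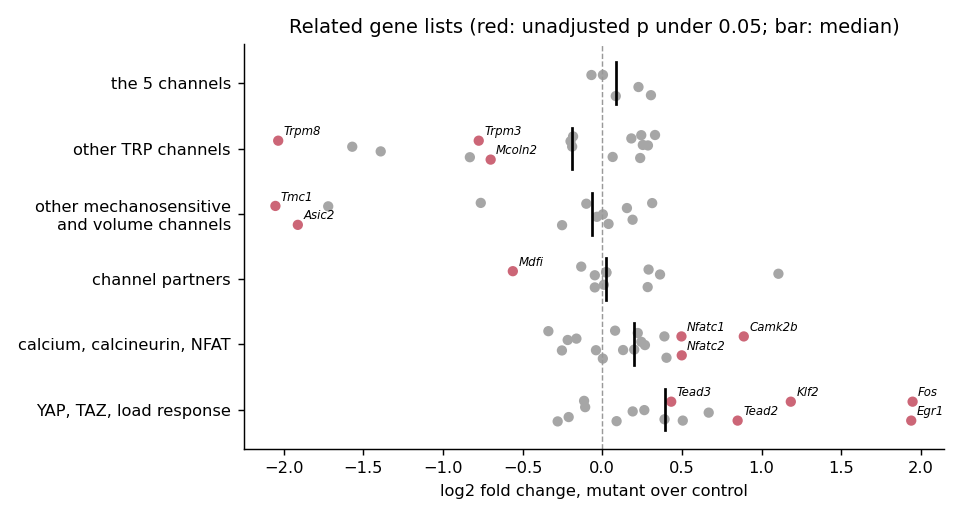
Log2 fold change of mutant over control for the 5 channels and the tested genes of 5 related lists, apart from a few listed genes that are not drawn. Each gene is 1 point, red where the unadjusted p was under 0.05, with a black bar at each list's median. The channels lie between -0.068 and 0.31, the red points of the channel lists are negative, and those of the calcium and load response lists are positive.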

How the data were processed

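Poly(A) RNA libraries of 6 IVD pools were made with the NEBNext Ultra kit. The authors deposited 1 file of raw read counts per gene symbol for each library. The study's methods name HISAT2 and GRCm38.88, whereas the submitters' processing notes list STAR 2.5.3a, HTSeq, DESeq2 and mm10, and the strand setting of the counting is not given in the sources used here. The authors' table of their own comparison (fold changes and p-values) was not used. Reads assigned to no gene were 39.4% to 43.3% per library and stayed out of library sizes.

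Counts were normalized by TMM in edgeR 4.0.16 (R 4.3.3), filtered by filterByExpr with a count minimum of 10, and 16152 genes were tested by the quasi-likelihood test of genotype, with Benjamini-Hochberg adjustment over all genes and a threshold of 0.05. CPM used TMM library sizes. Centred log2 CPM used a prior count of 2. The script was tested on simulated data. Levels were divided by the union of annotated exons (GENCODE M21). Alternatives were DESeq2 1.42.0, limma-voom 3.58.1, RLE size factors, no filter, a replicate block, Gm20388 counts added to Piezo1, other lengths, and each library left out. The members and lists were chosen with earlier results of these data known. Named genes were the 5 members, genes overlapping them, the targeted gene, the 2 most abundant genes of each list and those with an unadjusted p under 0.05 (at most 5 a list), the highest and lowest marker of a marker list or all where a result turned on them, and the 3 genes most like each member. A few listed genes enter the counts and medians but are not reported here or drawn.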

Additional observations from a re-analysis of the deposited data

How the results depend on the processing

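None of the 5 members passed an unadjusted or adjusted p of 0.05 under any alternative run, and counting error was largest for Trpc1. The number of genes with an unadjusted p under 0.05 (1164) was 2276 without a filter on low counts and 618 (without control replicate 3) to 2427 (without control replicate 1) with 1 library left out. The number after adjustment (1) was 245 without the filter, 58 with DESeq2, 0 with limma-voom, 5 with cartilage scaling, and 0 to 31 (without control replicate 1) with 1 library left out. Of the other listed genes, 15 of 72 tested passed unadjusted, with 20 of 86 without the filter (4 after adjustment), 20 of 74 without control replicate 1 (1 after adjustment), and 10 to 17 under the other alternatives (0 after adjustment).

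With 1 library left out, log2 fold changes ranged from -0.21 to 0.13 for Trpv4, -0.16 to 0.16 for Trpm7, -0.19 to 0.32 for Trpc1, -0.039 to 0.11 for Tmem63a, -0.075 to 0.098 for Tmem63b, -0.13 to 0.076 for Ppp3ca and -0.080 to 0.14 for Calm3, and the mutant minus control difference of the log2 ratio of Piezo1 to Piezo2 from -0.11 to 0.27. With Gm20388 counts added, which then make up most of the sum, the log2 fold change of Piezo1 was -0.20 and the mutant minus control difference of its log2 ratio to Piezo2 was -0.36. Cartilage scaling, chosen after seeing the data, gave -0.064 for Piezo2, -0.29 for Trpm7, -0.23 for Trpc1, -0.078 for Trpm4, -0.23 for Tmem63a, -0.28 for Tmem63b and -0.30 for Calm3, beside a median of -0.31 over all genes. Calm3 was at -0.015 with limma-voom. The cause of these turns was not tested, apart from the shift of the median.

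Replicate numbers do not pair the samples in the labels, and the deviations of same-numbered libraries correlated at 0.16, -0.13 and 0.10 across genes. With the replicate block, 1002 genes passed the unadjusted and 0 the adjusted threshold, Piezo1 was at 0.31, Piezo2 at 0.24, Trpv4 at -0.076, Trpm7 at 0.013, Trpc1 at 0.11 and Calm3 at -0.0065, and none of the 5 channels passed. The block ended the unadjusted calls of Trpm8, Mdfi, Camk2b, Klf2 and Tead3 and made those of Ctgf and Cyr61.

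By the longest transcript, levels were 181 CPM per kb for Trpv4, 28.9 for Piezo1, 6.62 for Trpm7, 5.28 for Piezo2 and 1.20 for Trpc1. By gene span, a length chosen after seeing the data, they were 16.2, 3.42, 0.556, 0.150 and 0.121.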
